A study of Saccharomyces cerevisiae with 9 samples.

Results

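Nearly all mitochondrial proteins are made in the cytosol and carried into the organelle by membrane machines, then cut and folded inside, and 35 genes of this machinery in baker's yeast, Saccharomyces cerevisiae, are described here. They were chosen by name, as the parts of the outer-membrane gate (TOM), the barrel assembly complex (SAM), the small TIM chaperones, the inner-membrane translocases TIM22 and TIM23, the import motor, the MIA pathway, the processing peptidase and the matrix folding factors. All 35 had a probe set of their own on the array, out of 5656 genes with a named probe set, and 34 of them were bright enough to be among the 4537 genes tested. TIM9 was the member left out of the tests, for a mean signal of 69.4.

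The Affymetrix Yeast Genome S98 arrays held RNA from a strain deleted for both CTH1 and CTH2. CTH2 cells carried the second gene on the plasmid pRS416, CTH1 cells carried the first gene on the same plasmid, and vector cells carried pRS416 with no insert. There were 3 arrays per group and 9 in all. Every culture, controls included, grew to exponential phase at 30 °C, which took about 6 hours, in synthetic medium without uracil that held 100 µM bathophenanthroline disulfonate (BPS), which binds iron, so all groups were short of iron and no iron-replete cells were measured. Neither the promoter of the plasmid genes nor whether each array came from its own transformant is stated in the labels, so the tests measure the spread between these samples, which may be technical. The question the design puts is what each mRNA-binding protein alone does to mRNA levels when iron is scarce, and for these genes it is whether mitochondrial mRNAs outside respiration differed as the respiratory ones did.

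A protein with a mitochondrial targeting signal first meets the receptors of the TOM complex and passes through its channel. From there barrel proteins go to SAM in the outer membrane, carrier proteins are escorted by small TIM chaperones to TIM22, and proteins with a presequence go to TIM23, where an ATP-driven Hsp70 motor pulls them into the matrix. Cth1 and Cth2 are zinc-finger proteins that bind AU-rich stretches of mRNA and speed its decay, and they are best known for lowering mRNAs of iron-using and respiratory proteins.

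Values are the authors' MAS5 signals, brightness on a linear scale with every array scaled to a common mean. They are compared between arrays for the same probe set only, since brightness differs between probe sets for reasons other than mRNA level. They are relative to the other mRNAs on the array, so a change shared by all mRNAs would not show. Being averages over a culture, they cannot tell fewer cells holding an mRNA from less of it per cell. Differences are on the log2 scale after raising signals below 43.2 to that floor, so that 1 is a 2-fold change, and come from limma fitted over all 4537 genes. A gene was called at a limma adjusted p under 0.05, with Benjamini-Hochberg adjustment over all genes tested.

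The plasmid genes followed the labels. The CTH2 gene, listed in the annotation as TIS11, had signals of 3390 to 4500 on the CTH2 arrays, 1.81 to 10.2 on the CTH1 arrays and 0.878 to 5.9 on the vector arrays, and the CTH1 gene had 231 to 592 on the CTH1 arrays and at most 14.3 elsewhere. CTH1 replicate 3 stood apart from the other arrays in its short mRNAs, so values of short genes in CTH1 cells are followed by those without it. The brightest control probe set for 18S ribosomal RNA ran lower on the CTH2 arrays (239 to 287) than on the CTH1 arrays (460 to 2160) and the vector arrays (454 to 993), and a second such set was likewise lower on the CTH2 arrays (90.5 to 189) than on the CTH1 arrays (207 to 893) and the vector arrays (266 to 324). In the other 18S control sets the groups overlapped. The brightest control set for 25S ribosomal RNA was lower on the CTH2 arrays (367 to 1010) than on the vector arrays (3350 to 4650). On CTH1 replicates 1 to 3 it was 6590, 2450 and 884. In the other 25S control sets the CTH2 and vector arrays overlapped. The part of ribosomal RNA in the results was not tested.

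No import or folding gene was called in CTH2 or CTH1 cells against vector cells, or between CTH2 and CTH1 cells. The member values lay on both sides of 0, while nearly all respiratory chain genes measured on the same arrays had values below 0 with either plasmid gene. With CTH2, 18 of the 34 members (52.9%) had a value below 0 and 16 above, where 40.9% of all genes were below 0. The median log2 difference was -0.02 (all genes tested, 0.07). With CTH1, 22 of 34 (64.7%) were below 0, where 41.4% of all genes were, and the median was -0.14 (all genes tested, 0.06). Between CTH2 and CTH1 cells the members' median was 0.05, with 13 of 34 (38.2%) below 0. Over all genes the median was 0.01, with 48.5% below 0.

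**Figure D1:**
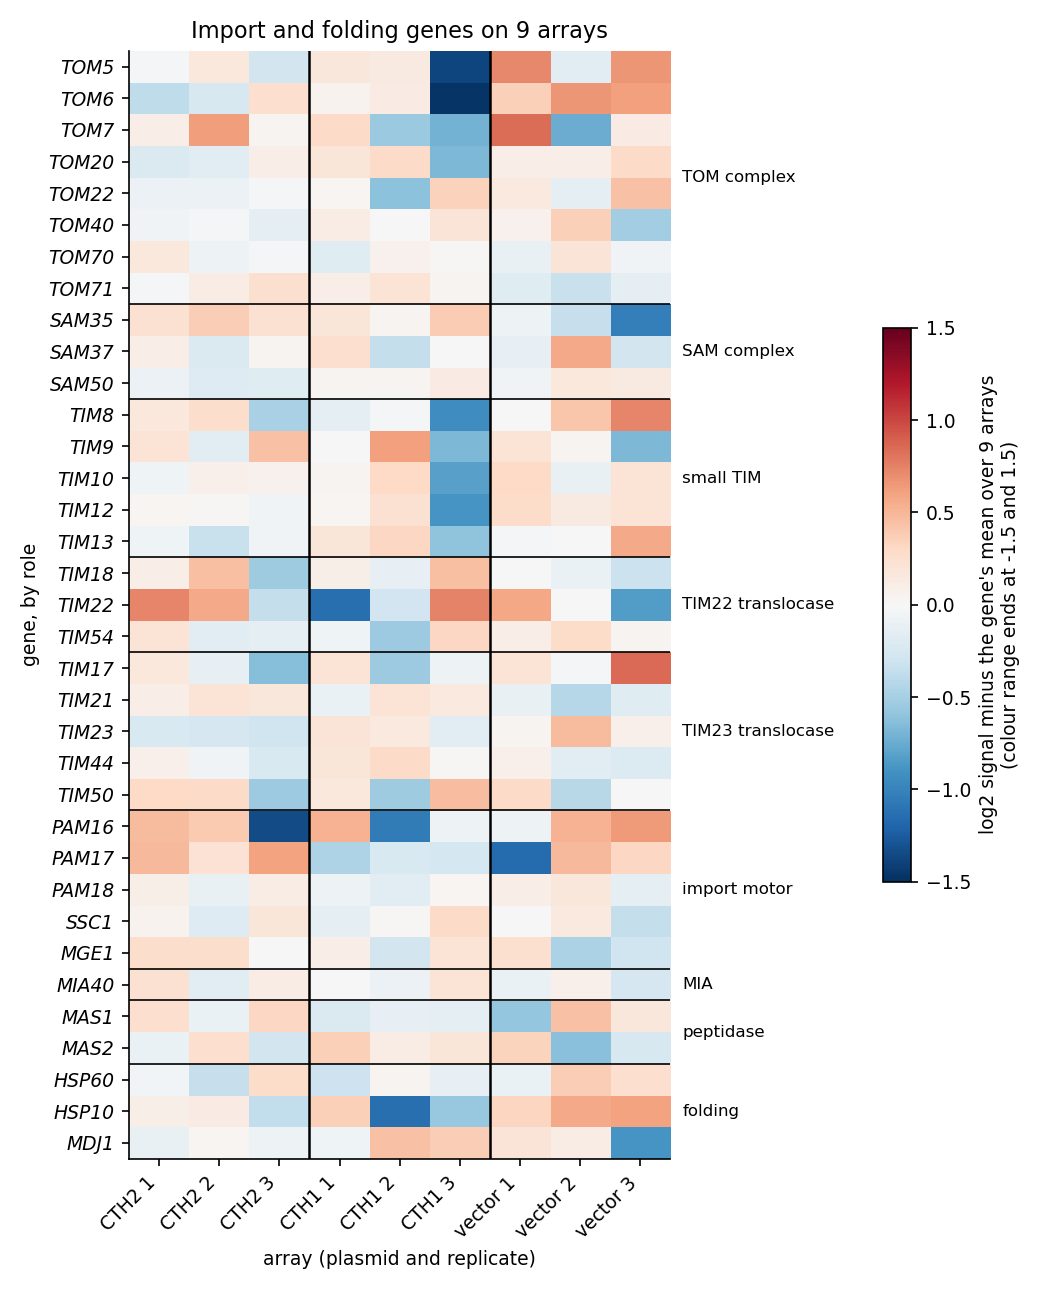
Colour gives the log2 signal of each of the 35 genes minus that gene's mean over the 9 arrays, with genes in rows by role and arrays in columns by plasmid and replicate. On CTH1 replicate 3 all 5 small TIM genes and TOM5, TOM6, TOM7 and TOM20 are blue (below their means), with TOM6 lowest at -1.47.

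The respiratory chain list gives the scale of the change seen elsewhere in the mitochondrion. With CTH2, 24 of its 25 tested genes were below 0, the median was -0.89, and SDH2 (-1.57), which carries the iron-sulfur clusters of respiratory complex II, and COX6 (-1.21), part of cytochrome c oxidase, were called with a limma adjusted p of 0.0279 each. With CTH1, 23 of 25 were below 0 with a median of -0.57, and none was called. The median deviation of the respiratory genes from their own means was -0.38, -0.40 and -0.23 on CTH2 replicates 1 to 3, 0.16, -0.05 and -0.29 on the CTH1 arrays, and 0.40, 0.40 and 0.52 on the vector arrays. The same median over the 34 import and folding genes was 0.09, 0.00 and -0.04 on the CTH2 arrays, 0.07, 0.01 and 0.02 on the CTH1 arrays and 0.07, 0.10 and 0.06 on the vector arrays. The respiratory medians of the CTH2 arrays and of the CTH1 arrays all lay below those of the vector arrays, and the CTH2 and CTH1 arrays overlapped. For the import and folding genes the 9 medians lay between -0.04 and 0.10. The difference between the lists was not tested.

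Other mitochondrial and chaperone lists were measured beside these. The 67 tested genes of the mitochondrial ribosome, taken by symbol, had medians of -0.08 with CTH2 and -0.12 with CTH1, and the 14 cytosolic chaperones had -0.04 and -0.02. The ATP synthase list (16 genes) had -0.29 and -0.14. Without CTH1 replicate 3 the ATP synthase median with CTH1 was -0.07, with 8 of 16 genes below 0 in place of 12 of 16. The TCA cycle list (11 genes) had -0.27 with CTH2, where aconitase, ACO1 (-1.49), was called with a limma adjusted p of 0.0279, and 0.03 with CTH1. Leaving out CTH1 replicate 3 also gave CTH1 medians of -0.39 in the respiratory chain (26 genes tested), -0.12 in the mitochondrial ribosome, 0.07 in the cytosolic chaperones, -0.005 in the TCA cycle and -0.07 in the import and folding members, so the chaperone and TCA cycle medians changed sign. In these lists no gene other than SDH2, COX6 and ACO1 was called in any of the 3 comparisons with all 9 arrays. The number of genes called over all genes in CTH2 against vector was 13, with the plasmid's own CTH2 gene (6.49) among them. That number ran from 1 (without CTH2 replicate 1 or 2, or without vector replicate 2 or 3) to 24 (without CTH1 replicate 2). In the fits with 1 call, SDH2, COX6 and ACO1 cannot all have been called.

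**Figure D2:**
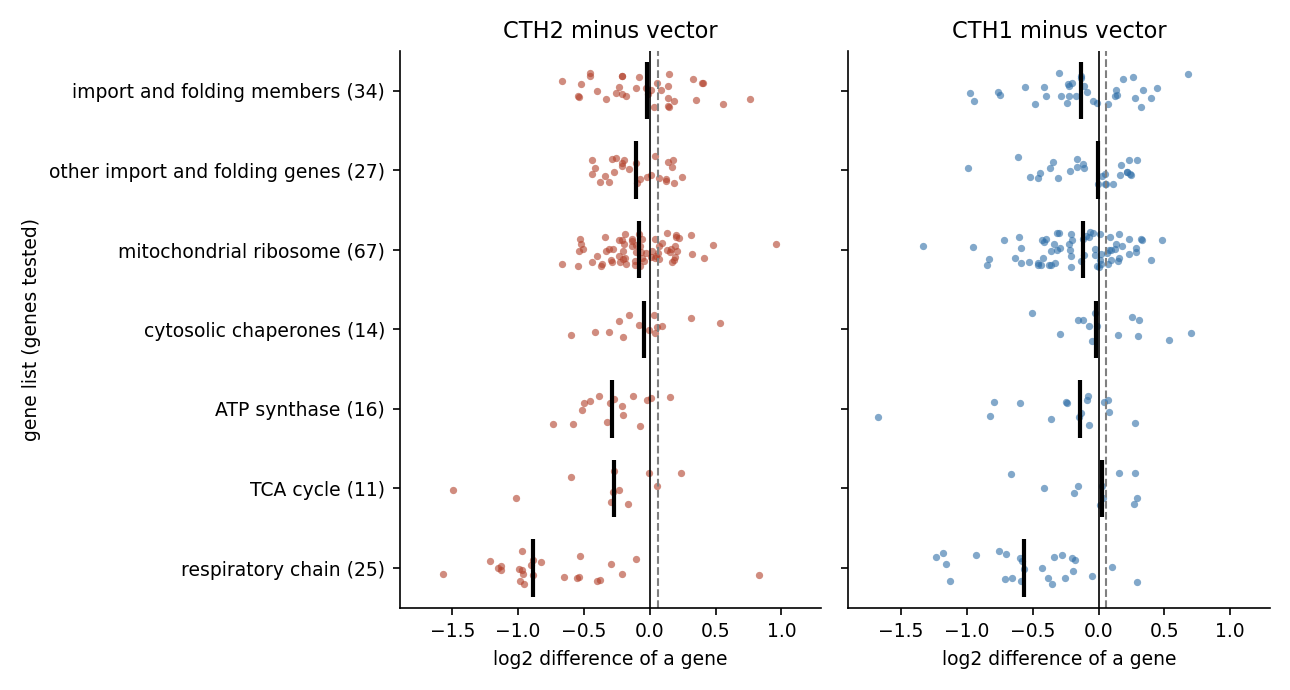
Each point is the log2 difference of 1 gene, CTH2 minus vector on the left and CTH1 minus vector on the right, with gene lists in rows, a thick bar at each list's median and a dashed line at the median of all genes tested. The import and folding genes scatter around 0 (medians -0.02 and -0.14), and the respiratory chain genes lie mostly to the left (medians -0.89 and -0.57).

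A p that misses the threshold does not show equal levels, so the 95% intervals bound what these arrays could have missed. With CTH2, 28 of the 34 members (82.4%) had an interval that stayed above -1, and 25 of 34 lay wholly between -1 and 1. The share above -1 was 92.1% over all genes tested and 24% (6 of 25) in the respiratory chain. With CTH1, 26 of 34 members (76.5%) stayed above -1, against 11 of 25 respiratory genes (44%) and 88.5% of all genes. The 6 members whose intervals reached below -1 with CTH2 were TOM5, TOM6, TIM8, TIM17, HSP10 and PAM16.

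**Figure D3:**
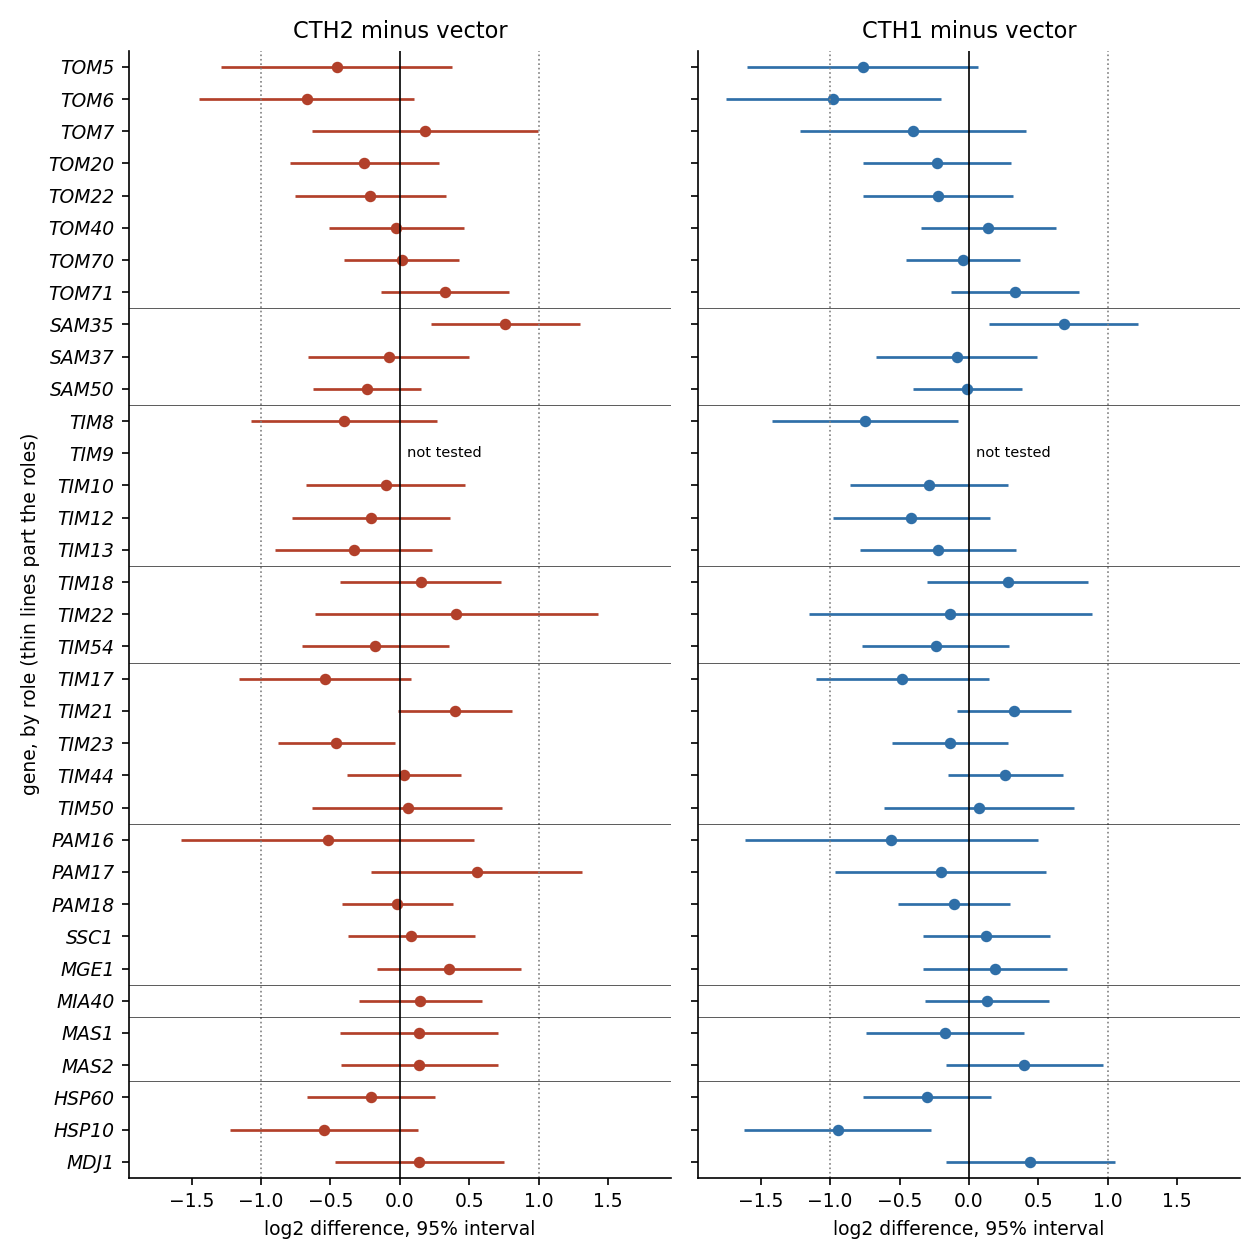
Points are log2 differences and lines their 95% intervals from limma, CTH2 minus vector on the left and CTH1 minus vector on the right, for the 34 tested genes by role, with dotted lines at -1 and 1. The intervals that exclude 0 are those of SAM35 and TIM23 with CTH2 and of TOM6, SAM35, TIM8 and HSP10 with CTH1, none of which passed after adjustment over all genes.

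Against vector, limma called 0.287% of all genes with CTH2 and 0% with CTH1, and 0 members in either. The genes called with CTH2 include the CTH2 gene of the plasmid itself. At an unadjusted p under 0.05, CTH2 against vector gave 2 members, where 9.35% of all genes reached that mark. They were SAM35 on the higher side (5.05% of all genes) and TIM23 on the lower side (4.3% of all genes). CTH1 against vector gave 4 members, where 6.9% of all genes reached it, namely SAM35 on the higher side (3.86% of all genes) and TOM6, TIM8 and HSP10 on the lower side (3.04% of all genes). Without CTH1 replicate 3 this count was 1 member, HSP10 on the lower side. Of the 4517 genes tested both with and without that array, 116 reached the mark on the higher side and 197 on the lower. The unadjusted p was then 0.0555 for SAM35, 0.0733 for TOM6 and 0.153 for TIM8. CTH2 against CTH1 gave 0 members by either mark. Of all genes limma called 0.022%, which was the plasmid's CTH2 gene alone, and 7.47% had an unadjusted p under 0.05 (3.92% higher and 3.55% lower). Without CTH1 replicate 3 the last comparison gave 1 member with an unadjusted p under 0.05, TIM22 on the higher side (1.03). Of the same 4517 genes, 308 reached that mark on the higher side there and 150 on the lower. The comparisons with vector share the 3 vector arrays, and a gene high or low on those arrays moves in both.

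Separation of the arrays gave a second count. With CTH2, 3 of 34 members (8.82%) had all 3 CTH2 arrays above all 3 vector arrays, where 9.48% of all genes did. On the lower side 6 of 34 (17.6%) were separated, where 6.99% of all genes were. Those 6 were TOM6, SAM50, TIM12, TIM13, TIM23 and HSP10, with differences of -0.67 to -0.21. With CTH1, 3 of 34 members were separated on the higher side (6.9% of all genes) and 2 of 34, TOM6 and TIM8, on the lower side (3.35% of all genes). TOM71, SAM35 and TIM21 were the separated members on the higher side with CTH2 and again with CTH1, against the same vector arrays. Between CTH2 and CTH1, PAM17 and MAS1 were separated on the higher side (6.26% of all genes), and TOM40, SAM50 and TIM23 on the lower side (7.19% of all genes). With CTH1 replicate 3 left out, which leaves 2 CTH1 arrays, CTH1 against vector had 4 members separated on the higher side (12.4% of all genes) and 3 on the lower (7.33%), and CTH2 against CTH1 had 3 on the higher side (12.6%) and 7 on the lower (11.6%).

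The TOM complex is the entry gate. TOM40, its channel, differed by -0.03 (SE 0.22) with CTH2 and 0.14 (SE 0.22) with CTH1. Among the receptors, values with CTH2 and then CTH1 were -0.26 and -0.23 for TOM20, -0.21 and -0.22 for TOM22, and 0.01 and -0.04 for TOM70, the receptor for carrier proteins. TOM71, a close relative of TOM70, had signals of 108, 119 and 131 on the CTH2 arrays, 119, 127 and 113 on the CTH1 arrays, and 97.7, 87.5 and 99.9 on the vector arrays. Its vector arrays lay below all others, with differences of 0.33 (SE 0.21) for each plasmid gene and limma adjusted p of 0.673 with CTH2 and 0.812 with CTH1.

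The small TOM subunits, which steady the complex, include TOM6, TOM5 and TOM7. TOM6, which helps to hold the channel complex together, had signals of 1600, 1760 and 2470 on the CTH2 arrays, 2160, 2260 and 752 on the CTH1 arrays and 2670, 3290 and 3190 on the vector arrays. All 6 arrays with a plasmid gene lay below the vector arrays, and CTH1 replicate 3 was far below the rest. The log2 mean was 10.90 ± 0.33 in CTH2 cells, 10.59 ± 0.90 in CTH1 cells and 11.57 ± 0.16 in vector cells (SD, n = 3 each). The differences from vector were -0.67 (SE 0.36, limma adjusted p = 0.604) with CTH2 and -0.98 (SE 0.36, limma adjusted p = 0.657) with CTH1. Without CTH1 replicate 3 the TOM6 value with CTH1 was -0.46 (SE 0.24, limma adjusted p = 0.758).

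TOM7, which acts on the assembly of the complex, had signals of 344, 497 and 332 in CTH2 cells, 392, 219 and 196 in CTH1 cells and 573, 192 and 351 in vector cells. The groups overlapped in every comparison, and the vector arrays alone spanned a range of 1.58 on the log2 scale. CTH2 against CTH1 gave 0.58 (SE 0.38, limma adjusted p = 0.823), and 0.39 without CTH1 replicate 3. TOM5 differed by -0.45 (SE 0.38) with CTH2 and -0.76 (SE 0.38) with CTH1, with overlapping groups, and by -0.25 with CTH1 once CTH1 replicate 3 was left out. Under the same omission TOM7 in CTH1 against vector was -0.21 in place of -0.40, TOM20 was 0.07 in place of -0.23, and TOM22 was -0.43 in place of -0.22.

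The SAM complex inserts barrel proteins such as the TOM channel into the outer membrane. SAM35, the subunit that recognises the sorting signal of barrel proteins, had signals of 507, 559 and 507 on the CTH2 arrays, 489, 443 and 563 on the CTH1 arrays and 410, 341 and 211 on the vector arrays. The vector arrays lay below all 6 others, with replicate 3 the lowest of the 9. The log2 mean was 9.03 ± 0.08 in CTH2 cells, 8.95 ± 0.17 in CTH1 cells and 8.27 ± 0.49 in vector cells (SD, n = 3 each), which gave 0.76 (SE 0.25, limma adjusted p = 0.299) with CTH2 and 0.68 (SE 0.25, limma adjusted p = 0.657) with CTH1. This was the member nearest to a call in CTH2 against vector. Without vector replicate 3 the differences were 0.49 with CTH2 and 0.41 with CTH1, and without vector replicate 1 they were 0.965 and 0.886. With array weights they were 0.83 with CTH2 (limma adjusted p = 0.0766) and 0.73 with CTH1 (limma adjusted p = 0.432). SAM50, the barrel at the core of the complex, differed by -0.24 (SE 0.18) and -0.01 (SE 0.18), and SAM37 by -0.08 and -0.09 (SE 0.27 each), for CTH2 and CTH1 against vector in that order.

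The small TIM proteins are chaperones of the space between the membranes, where Tim9 with Tim10 and Tim8 with Tim13 form rings that shield hydrophobic cargo. TIM10 had signals of 1390, 1540 and 1530 in CTH2 cells, 1500, 1790 and 828 in CTH1 cells and 1790, 1350 and 1680 in vector cells. TIM13 had 2010, 1670 and 2020 in CTH2 cells, 2370, 2610 and 1380 in CTH1 cells and 2070, 2100 and 3120 in vector cells. Each was lowest on CTH1 replicate 3, and elsewhere the groups were close, though the CTH2 arrays of TIM13 lay just under the vector arrays.

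TIM8 had signals of 184, 198 and 118 in CTH2 cells, 150, 162 and 86.3 in CTH1 cells and 166, 219 and 274 in vector cells. TIM12, which binds the small TIM ring to the inner membrane at TIM22, had 580, 579 and 551 in CTH2 cells, 583, 668 and 309 in CTH1 cells and 690, 628 and 657 in vector cells. TIM9 had 79, 61.9 and 93.2 in CTH2 cells, 68.5, 106 and 28.4 in CTH1 cells and 79.3, 70.6 and 38.1 in vector cells. TIM8 on the CTH1 arrays and TIM12 on the CTH2 arrays lay below all vector arrays, while TIM9 was dim, with 2 of its 9 values under the floor, and showed no separation.

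With CTH2 the 4 tested small TIM genes all had values below 0, from -0.40 for TIM8 (SE 0.31, limma adjusted p = 0.735) to -0.10 for TIM10, with a median of -0.27. With CTH1 they ran from -0.75 for TIM8 (SE 0.31, limma adjusted p = 0.712) to -0.23 for TIM13, with a median of -0.35. Without CTH1 replicate 3 the CTH1 values were -0.46 for TIM8 (SE 0.31), -0.08 for TIM12 (SE 0.22), 0.04 for TIM10 (SE 0.22) and 0.06 for TIM13 (SE 0.24), with a median of -0.02. The negative median of these genes in CTH1 cells therefore rested on that array. The direct comparison of CTH2 with CTH1 moved with it too, with a median of 0.20 over all arrays and -0.14 without that array. The CTH2 against vector median, which does not use that array, was -0.18 without CTH2 replicate 3 and also without vector replicate 3. TIM8 in that comparison was -0.17 without CTH2 replicate 3 and -0.23 without vector replicate 3, and TIM13 was -0.14 without vector replicate 3.

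The members with short genes were all low on CTH1 replicate 3. Of the 35 members, 9 have coding lengths of 153 to 330 nucleotides, that is TOM5, TOM6, TOM7, TIM8, TIM9, TIM10, TIM12, TIM13 and HSP10. All 9 were lower on CTH1 replicate 3 than the mean of CTH1 replicates 1 and 2, with differences of -1.56 for TOM6, -1.54 for TOM5, -0.98 for TIM9 and -0.19 for HSP10, with a median of -0.98. For 7 of the 9 it was the lowest of all arrays, the exceptions being TOM7 (lowest on vector replicate 2) and HSP10 (lowest on CTH1 replicate 2). Of the 26 members of 450 to 1965 nucleotides, 5 were lower on that array than the mean of its sister arrays, the median was 0.12, and TOM20 (552 nucleotides, -0.90) alone was lowest there.

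Most other short genes were low there too. Over the 297 tested protein-coding genes of at most 400 nucleotides, the median of CTH1 replicate 3 minus the mean of its sister arrays was -0.60, and 87.9% were below 0. Over the 3003 genes above 900 nucleotides it was 0.11, with 38% below 0. The array was the lowest of the 9 for 54.9% of the short genes and 3.1% of the long ones.

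**Figure D4:**
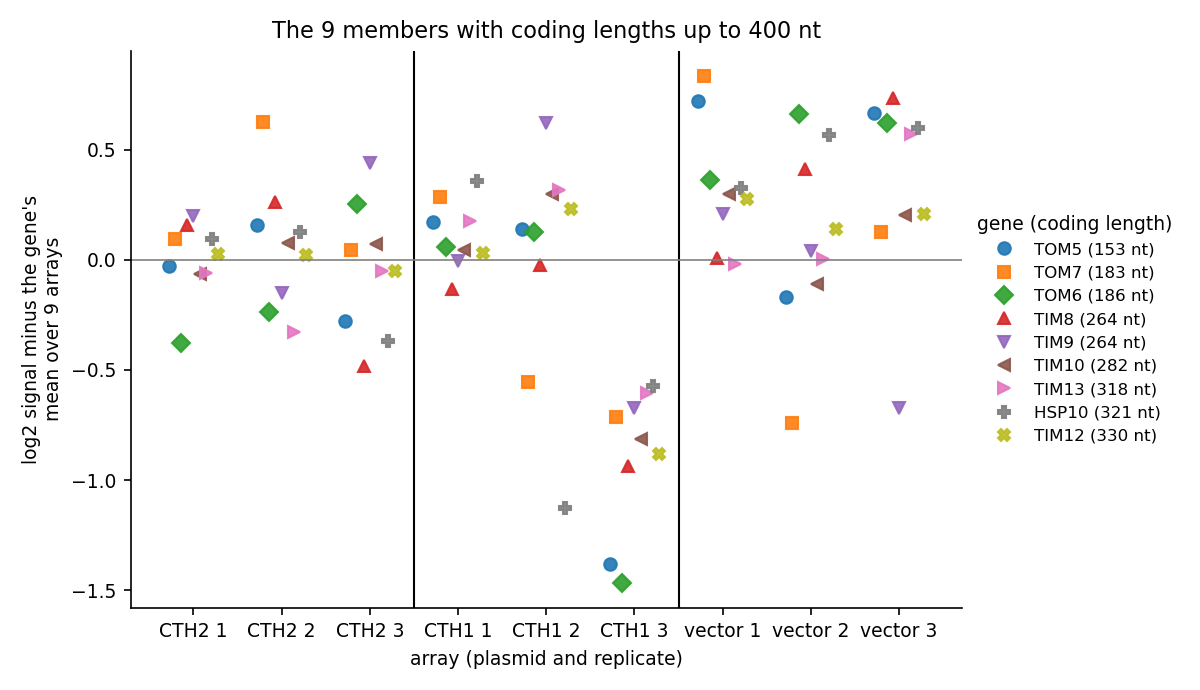
Each symbol is the log2 signal of a gene of at most 400 nucleotides minus that gene's mean over the 9 arrays, for the 9 such members, with arrays along the horizontal axis. All 9 lie below 0 on CTH1 replicate 3, from -1.47 for TOM6 to -0.57 for HSP10.

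**Figure D5:**
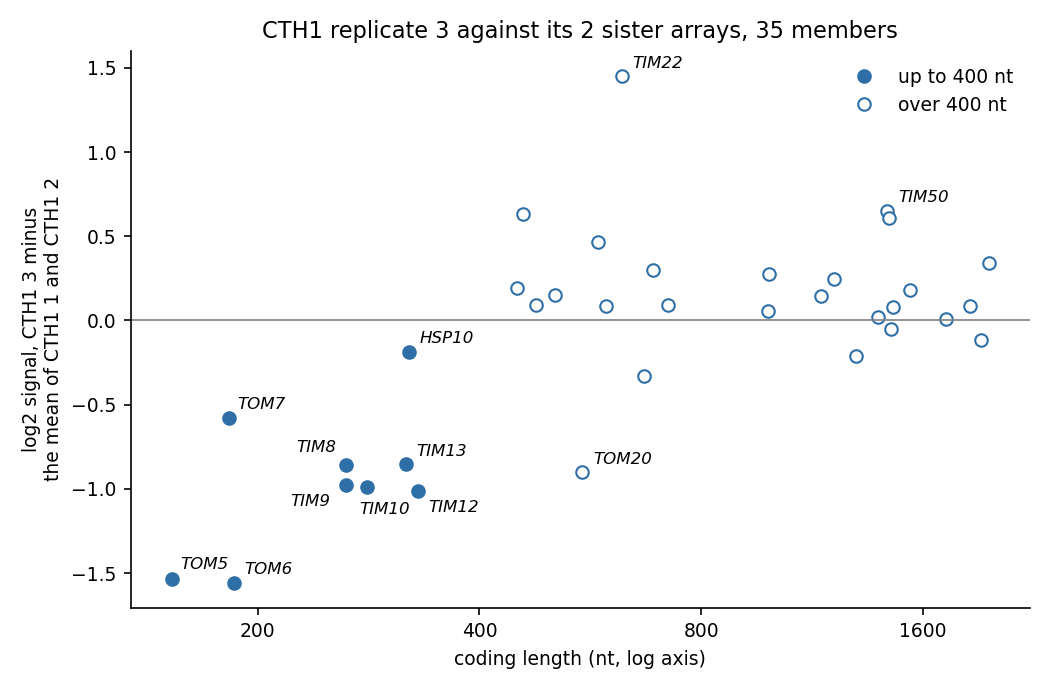
The vertical axis is the log2 signal on CTH1 replicate 3 minus the mean of CTH1 replicates 1 and 2, and the horizontal axis the coding length in nucleotides on a log axis, for all 35 members. The 9 filled points up to 400 nucleotides are all below 0, while 5 of the 26 open points above that length are below 0.

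Most short members had values below 0 with CTH2 as well. The median deviation of the 297 short genes was -0.04, 0.02 and 0.19 on CTH2 replicates 1 to 3, against -0.55 on CTH1 replicate 3. On vector replicates 1 to 3 it was 0.10, 0.15 and 0.15. For the 8 tested short members it was -0.001, 0.10 and -0.05 on the CTH2 arrays. On the vector arrays it was 0.31, 0.07 and 0.59 for these members, so CTH2 replicate 2 lay above vector replicate 2. The 8 tested short members had a median of -0.37 in CTH2 against vector, with 7 of 8 below 0, and 4 of them (TOM6, TIM12, TIM13 and HSP10) had CTH2 arrays wholly below the vector arrays. All 297 short genes had a median of -0.04 in that comparison, with 10.8% separated on the lower side. The 26 longer members had a median of 0.04. In CTH1 against vector the short members had a median of -0.58, which became -0.23 without CTH1 replicate 3, and the 297 short genes had -0.25, which became -0.03. No member among them was called in any of these fits.

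The TIM22 translocase inserts carrier proteins into the inner membrane. TIM22, its channel, had signals of 361, 321 and 170 in CTH2 cells, 98.8, 178 and 363 in CTH1 cells and 323, 215 and 121 in vector cells. The groups overlapped in every comparison, and the range of 1.88 on the log2 scale in CTH1 cells was the widest of any member within a group. TIM22 differed by 0.41 (SE 0.47) with CTH2 and -0.13 (SE 0.47) with CTH1, the second being -0.62 without CTH1 replicate 3. TIM54, which offers a docking surface, differed by -0.18 and -0.24 (SE 0.24 each) and TIM18 by 0.15 and 0.28 (SE 0.27 each), CTH2 first and CTH1 second. With CTH1, TIM54 was -0.44 and TIM18 was 0.12 without CTH1 replicate 3.

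The TIM23 translocase takes in proteins with a presequence. TIM23, the channel protein, had signals of 1180, 1170 and 1130 on the CTH2 arrays, 1590, 1530 and 1240 on the CTH1 arrays and 1430, 1920 and 1460 on the vector arrays. The CTH2 arrays were close together and below all 6 others. The log2 mean was 10.18 ± 0.03 in CTH2 cells, 10.50 ± 0.19 in CTH1 cells and 10.64 ± 0.24 in vector cells (SD, n = 3 each). The difference was -0.46 (SE 0.19, limma adjusted p = 0.490) against vector and -0.32 (SE 0.19, limma adjusted p = 0.787) against CTH1.

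TIM21, which links the translocase to the TOM complex and to respiratory complexes, had signals of 595, 641 and 629 in CTH2 cells, 520, 642 and 617 in CTH1 cells and 516, 415 and 490 in vector cells. Both plasmid groups lay above vector, by 0.40 with CTH2 (SE 0.19, limma adjusted p = 0.548) and 0.33 with CTH1 (SE 0.19, limma adjusted p = 0.789). TIM17, the partner of Tim23 in the channel, differed by -0.54 (SE 0.29) and -0.48 (SE 0.29) with overlapping arrays. TIM50, the presequence receptor, differed by 0.06 and 0.07 (SE 0.32 each), and TIM44, which anchors the motor, by 0.03 and 0.26 (SE 0.19 each), for CTH2 and CTH1 in that order.

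The import motor is built on the mitochondrial Hsp70, SSC1, which differed by 0.08 with CTH2 and 0.13 with CTH1 (SE 0.21 each). Its nucleotide exchange factor MGE1 differed by 0.36 and 0.19 (SE 0.24 each), and its J-protein partner PAM18 by -0.02 and -0.11 (SE 0.19 each). PAM17, a further motor subunit, had signals of 797, 660 and 861 in CTH2 cells, 411, 483 and 472 in CTH1 cells and 255, 794 and 705 in vector cells. All CTH2 arrays lay above all CTH1 arrays, and the vector arrays, at 255 to 794, overlapped with both. CTH2 against CTH1 gave 0.76 (SE 0.35, limma adjusted p = 0.662), the smallest p of any member in that comparison. PAM16, the J-like partner that holds Pam18 in check, had 163, 153 and 45.9 in CTH2 cells, 168, 56.6 and 111 in CTH1 cells and 111, 168 and 182 in vector cells. Its lowest values stood on single arrays of the CTH2 and CTH1 groups, and the SE was 0.49 for differences of -0.52 with CTH2 and -0.56 with CTH1.

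In the MIA pathway, which folds small cysteine-rich proteins such as the small TIMs by oxidation, MIA40 differed by 0.15 with CTH2 and 0.13 with CTH1 (SE 0.21 each). The processing peptidase that removes presequences is made of MAS1 and MAS2. MAS1 differed by 0.14 and -0.17 and MAS2 by 0.14 and 0.40 (SE 0.26 each), CTH2 first, and all these arrays overlapped with vector.

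Folding in the matrix is carried out by the Hsp60 chaperonin with its lid Hsp10. HSP60 had signals of 4490, 3640 and 5580 in CTH2 cells, 3740, 4750 and 4240 in CTH1 cells and 4310, 5960 and 5500 in vector cells, overlapping throughout, and differed by -0.21 and -0.30 (SE 0.21 each). HSP10 had 2360, 2420 and 1720 in CTH2 cells, 2840, 1010 and 1490 in CTH1 cells and 2780, 3280 and 3360 in vector cells. The CTH2 arrays of HSP10 lay below vector, as did CTH1 replicates 2 and 3, while CTH1 replicate 1 lay within the vector range. The log2 mean of HSP10 was 11.07 ± 0.28 in CTH2 cells, 10.67 ± 0.75 in CTH1 cells and 11.61 ± 0.15 in vector cells (SD, n = 3 each).

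HSP10 differed by -0.55 (SE 0.31, limma adjusted p = 0.610) with CTH2 and by -0.95 (SE 0.31, limma adjusted p = 0.615) with CTH1, the smallest p of any member in CTH1 against vector. The CTH1 value ran from -1.35 without CTH1 replicate 1 to -0.61 without CTH1 replicate 2, and was -0.88 without CTH1 replicate 3, the array that was low for short genes. It was -0.50 with array weights (limma adjusted p = 0.753) and -0.71 after the coding-length correction. MDJ1, the J-protein that works with Hsp70 in folding, differed by 0.14 (SE 0.28) with CTH2 and 0.44 (SE 0.28) with CTH1.

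A wider list of import, membrane insertion, processing and quality-control genes also held no called gene. Of 34 genes listed, 27 were tested and 0 were called by limma in any comparison, and the median was -0.11 with CTH2 and -0.01 with CTH1. With CTH2 none had an unadjusted p under 0.05, where 9.35% of all genes did. The smallest p belonged to the inner-membrane proteases AFG3 (-0.44, SE 0.22) and YME1 (-0.44, SE 0.23). With CTH1, 2 of 27 reached that mark, where 6.9% of all genes did. Both were on the lower side (3.04% of all genes). They were the inner-membrane peptidase subunit IMP2 (-0.62, SE 0.22) and MIM2 (-0.99, SE 0.40), which helps to insert outer-membrane proteins. All 27 lay between -0.44 and 0.25 with CTH2, and between -0.99 and 0.29 with CTH1. Without CTH1 replicate 3 they lay between -0.70 and 0.48 with CTH1, with a median of 0.008. In that fit 2 of 27 had an unadjusted p under 0.05, both on the lower side. Of the 4517 genes tested both with and without CTH1 replicate 3, 197 did so on the lower side. The 34 members ran from -0.67 to 0.76 with CTH2 and from -0.98 to 0.68 with CTH1 (-0.88 to 0.59 without CTH1 replicate 3).

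The spread between replicates sets what could be seen. The median SD within a group over the tested members was 0.18 in CTH2 cells, 0.28 in CTH1 cells and 0.28 in vector cells, against 0.24, 0.30 and 0.25 over all genes tested.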

How the data were processed

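The authors deposited 1 MAS5 intensity value per probe set and array on a linear scale, made with MAS5 per the submitters' processing notes (version unknown here). Trimmed means of 500.4 to 500.6 on all 9 arrays show scaling to a common target. Of 9335 probe sets, 6504 had 1 gene in the platform annotation. Symbols and coding lengths came from RefSeq (assembly R64), and all 35 members matched. The length was a multiple of 3 for 97.1% of the tested protein-coding genes. For some genes it is therefore not the length of the coding sequence alone, and genes were sorted as short or long by this length. Array number limits the precision.

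Deposited signals under 43.2, the 10th percentile over named genes, were raised to it before taking log2. The brightest probe set of a gene was kept, and those whose mean signal passed 98.4 (the 25th percentile) were tested. The test was limma 3.58.1 (R 4.3.3, lmFit, eBayes with intensity trend, all 9 arrays, no covariates). It was tried on simulated data with noise independent between genes. That trial held no shift of short genes on 1 array, so it does not cover the pattern of CTH1 replicate 3. Arrays of 1 group differed by an SD of 0.299 to 0.702 (log2), so none was a duplicate. Members and lists were chosen with earlier results of these data known. By rule, values on all arrays are given for the small TIM genes, the 3 members with the smallest p in each comparison, the 3 brightest and 3 dimmest, and the member with the widest range within a group. TOM71, PAM16 and TIM9 were dimmest, HSP60, HSP10 and TOM6 brightest. The alternatives were another floor, no filter, 2 scalings, array weights, probe-set means, a coding-length correction, a replicate block, fits of 2 groups and leaving out each array.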

Additional observations from a re-analysis of the deposited data

How the results depend on the processing

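No member was called by limma in any of the 3 comparisons under any of 18 alternatives; without the filter on dim genes TIM9 differed by 0.30 with CTH2 and 0.12 with CTH1. Calls over all genes were less steady. CTH2 against vector had 13 with all arrays, 2 without the filter, 1 under the replicate block and likewise under the higher floor (25th percentile). With so few calls, SDH2, COX6 and ACO1 cannot all have been called under these 3 alternatives. Array weights gave 72, removing the coding-length trend gave 23, and fitting the CTH2 and vector arrays alone gave 22. Leaving out single arrays gave 1 to 24, with 2 without CTH2 replicate 3 and 6 without vector replicate 1. CTH2 against CTH1 had 1 with all arrays, the CTH2 gene of the plasmid itself (6.49). It had 3 with no filter, 26 with array weights and 1 to 3 with single arrays left out. CTH1 against vector had 0 throughout.

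Scaling to a common median moved the median of all genes by -0.12 in CTH2 against vector. The members' median was then -0.14 in CTH2 against vector, -0.20 in CTH1 against vector and -0.014 in CTH2 against CTH1, but relative to all genes it stayed at -0.09, -0.19 and 0.04. In CTH2 against CTH1 it was -0.013 with quantile normalization and -0.001 after the coding-length correction. With single arrays left out it ran from -0.095 to 0.004 in CTH2 against vector, from -0.141 to -0.024 in CTH1 against vector and from 0.027 to 0.089 in CTH2 against CTH1. Among the members followed through all alternatives, TIM10 and TIM13 changed sign, both in CTH1 against vector. With single arrays left out TIM10 ran from -0.516 to 0.0407 and TIM13 from -0.401 to 0.0593, each highest without CTH1 replicate 3, and TIM13 was 0.0133 after the coding-length correction. The replicate block changed no member's call. Over all genes the deviations of same-numbered arrays from their group means had correlations of -0.578 to 0.212. With 3 arrays per group this does not settle whether the numbers pair the arrays, and the labels do not say.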
